A study of Mus musculus with 6 samples.

Results

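The genes described here are 10 members of the NF-kB system of the mouse, chosen by name: the 5 subunit genes Nfkb1, Nfkb2, Rel, Rela and Relb, the inhibitor genes Nfkbia, Nfkbib, Nfkbie and Nfkbiz, and Tnfaip3. All 10 were found among the 49315 genes of the deposited count files. The libraries came from cerebral cortex of wild type mice. Every mouse had received, at 21 days of age, an AAV-PHP.eB vector into the retro-orbital sinus, a capsid that reaches the brain from the blood, carrying GFP and an shRNA under a Gfap promoter, which is active mainly in astrocytes. In 3 libraries (shScr) the shRNA was a scrambled control, and in 3 (shFabp7) it was directed against Fabp7, the gene of a fatty acid-binding protein of brain glia. From 4 months of age all mice were injected with lipopolysaccharide (LPS), the outer-membrane glycolipid of Gram-negative bacteria and a strong trigger of inflammation, at 1 mg/kg once a week for 3 weeks. The cortex was collected 24 h after the last injection. No group without LPS was analysed here, so the values compare the shRNA groups under LPS and do not show what LPS did to these genes.

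NF-kB is a family of transcription factors that work as dimers of the subunits. In resting cells the dimers are held in the cytoplasm by IkB proteins. Signals such as LPS or interleukin-1 activate a kinase complex, IKK, that marks the IkB proteins for destruction and frees the dimers to enter the nucleus. Among the genes they then switch on are those of their own inhibitors, which shut the response down again. In the brain, microglia, endothelial cells and astrocytes use this system in the response to systemic inflammation. Its activity is set largely by protein destruction and movement into the nucleus, which RNA levels do not measure.

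The kappaB consensus motif, the 10-base element that NF-kB dimers bind, was searched on both strands in RefSeq promoters of build GRCm38.p6, each running from 250 bases before to 50 bases after an annotated start. Of the 7 members with a promoter in that table (Nfkb1, Relb and Nfkbiz had none), 5 held at least 1 match: Nfkb2, Rel, Nfkbia, Nfkbie and Tnfaip3. Over all 27025 genes in the table, 9.55% held one. Rela and Nfkbib held none, which says only that the motif's letters are absent from those windows. The stretches below show matches that begin within 150 bases before a start and lie before it, with matching bases in capitals. For Tnfaip3, which held 2 match positions, only the match nearest to the start is printed, with a shorter flank. Where matches on both strands overlap, the capitals run together. Nfkb2 (chr19:46304678-46304736, plus strand), Rel (chr11:23771031-23771081, minus strand), Nfkbia (chr12:55492648-55492696, minus strand), Nfkbie (chr17:45555574-45555623, plus strand) and Tnfaip3 (chr10:19015411-19015432, minus strand) are each printed 5′ to 3′ on the strand of the gene.
Nfkb2: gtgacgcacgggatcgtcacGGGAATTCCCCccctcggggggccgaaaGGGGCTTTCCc
Rel: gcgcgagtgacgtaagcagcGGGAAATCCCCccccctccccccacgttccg
Nfkbia: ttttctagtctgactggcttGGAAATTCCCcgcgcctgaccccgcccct
Nfkbie: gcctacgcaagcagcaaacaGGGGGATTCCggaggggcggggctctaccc
Tnfaip3: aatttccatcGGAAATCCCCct

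The printed matches of Nfkb2 began 39 bases before its start, that of Nfkbia 29 bases and the printed match of Tnfaip3 12 bases before. Those of Nfkbie and Rel lay farther out, beginning 106 and 92 bases before the start. All annotated promoters of Nfkb2 held matches (3 of 3), and 1 of 2 of Tnfaip3. The start used for Tnfaip3 is RefSeq's, at 19015410, and lies inside the gene model of the count files. A match is a description of the sequence and does not show that the site is bound in these cells.

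Total counts ranged from 16914012 to 18991235 per library, and the 10 members had between 37 and 531 counts in a library, so the least abundant carry a counting error alone of about 15.1% (Nfkbie) against 4.80% for Rela. Levels are given as CPM, which set the counts of a gene against the library total after TMM scaling, a factor that evens out differences in library composition. Fabp7, the target of the shRNA, had 26.3, 15.2 and 15.8 CPM in shScr and 5.56, 2.49 and 3.52 CPM in shFabp7. Its log2 fold change was -2.31, which did not pass the threshold (adjusted p = 0.0704, edgeR). The labels give no sex. Xist and Y-linked reads put 1 of 3 shScr libraries (library 3) and 2 of 3 shFabp7 libraries (2 and 3) as female, and shFabp7 library 2 also held 223 reads of 4 Y-linked genes, against 27 and 36 in the other female libraries and 3435 to 3859 in the male ones. Whether that library holds RNA of more than 1 mouse was not tested. Nfkb1, Nfkb2 and Relb are therefore also given below with sex as a term and without that library. Such values are not given for the pathway genes named further below.

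None of the 10 genes passed the threshold (0 of 10 at an adjusted p under 0.05 in edgeR's quasi-likelihood test, 2 of 10 at an unadjusted p under 0.05, and 0 of 10 in DESeq2 and in limma-voom). Over all 17185 genes tested, 20 passed, which is 0.116% (0.0582% lower in shFabp7 and 0.0582% higher), and 16.8% had an unadjusted p under 0.05 (8.32% lower in shFabp7, the direction of both members). DESeq2 called 4.49% of the 15516 genes to which it gave an adjusted p, and limma-voom 0.634% of all genes. All 10 members had enough counts to be tested. Of their log2 fold changes (shFabp7 minus shScr), 8 lay below 0, with a median of -0.085 beside -0.0065 for all genes tested, of which 51.5% lay below 0. Leaving out single libraries moved the members' median between -0.16 (without shScr library 1, and also without shFabp7 library 3) and -0.027 (without shFabp7 library 1), with -0.034 without shScr library 2. In 3 members (Nfkb1, Nfkb2 and Relb) every shFabp7 library was lower than every shScr library. For all genes tested that share was 11.5%. No member had all shFabp7 libraries higher, which held for 11.4% of all genes. The 10 members were chosen with earlier results of these libraries known, so their count is a description.

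**Figure D1:**
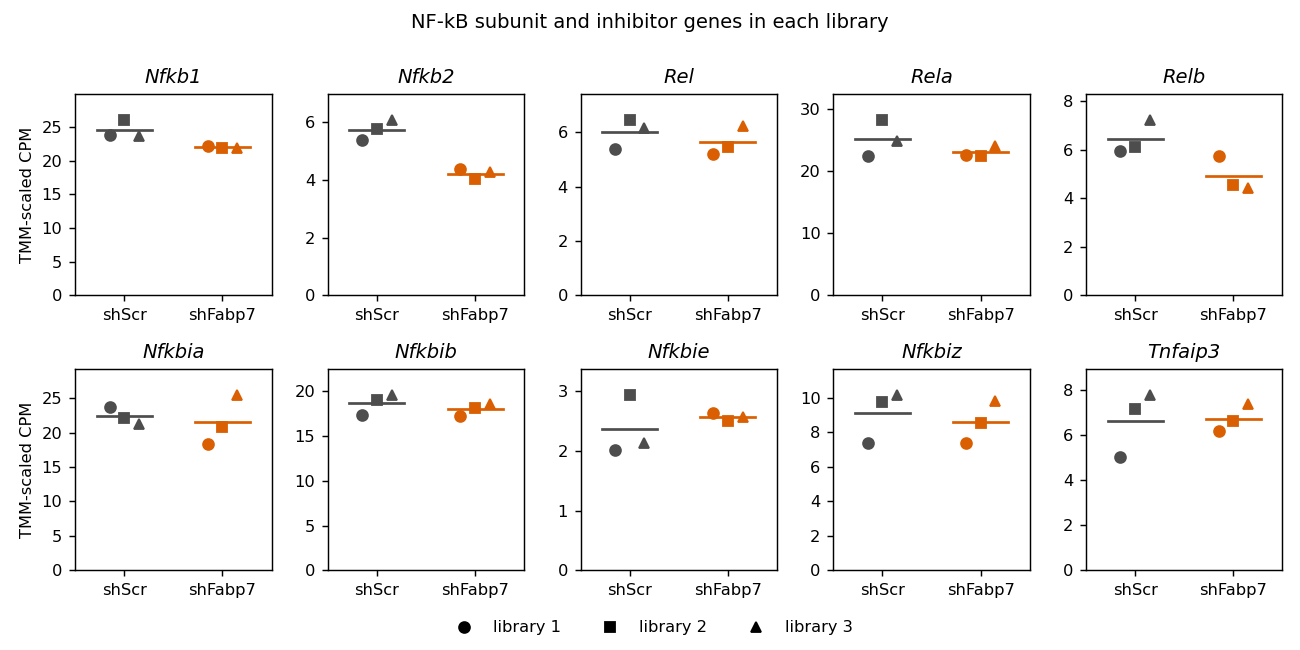
Level of each of the 10 genes in TMM-scaled CPM (vertical axis, from 0) in the 3 shScr (grey) and 3 shFabp7 (orange) libraries, with marker shapes for the library number and a bar for the group mean. The groups are separate for Nfkb1, Nfkb2 and Relb, and overlap for the other 7 genes.

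Nfkb2 encodes p100, a precursor that holds Relb in the cytoplasm and is cut to the subunit p52 when the alternative NF-kB pathway is switched on. The gene (ENSMUSG00000025225) occupies bases 46304737 to 46312090 of chromosome 19, plus strand, in the coordinates of the files. Its level was 5.39, 5.74 and 6.06 CPM in shScr libraries 1 to 3 and 4.36, 4.01 and 4.27 CPM in shFabp7 libraries 1 to 3. The lowest shScr library thus lay above the highest shFabp7 library. Group means were 5.73 ± 0.335 and 4.22 ± 0.181 CPM (SD, n = 3 each), so that the shFabp7 mean was 73.6% of the shScr mean. On the log2 scale the difference was -0.44 (SE 0.15), with a 95% interval of -0.79 to -0.097. It had the lowest p of the 10 genes in edgeR (unadjusted 0.0171, adjusted p = 0.205) and did not pass the threshold. By exact permutation of the libraries (two-sided) p was 0.1, below which a split of 6 libraries into 3 and 3 cannot go.

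Relb encodes the partner of p52 in the alternative pathway. It occupies bases 19606217 to 19629438 of chromosome 7, minus strand (ENSMUSG00000002983). Its level was 5.93, 6.12 and 7.20 CPM in shScr and 5.74, 4.56 and 4.43 CPM in shFabp7. The groups did not overlap, but shFabp7 library 1 lay close under the lowest shScr library. Means were 6.42 ± 0.687 and 4.91 ± 0.720 CPM (SD, n = 3 each). The difference on the log2 scale was -0.39 (SE 0.17), with a 95% interval of -0.77 to -0.0074 (unadjusted p = 0.0465, adjusted p = 0.291, edgeR). Leaving out single libraries moved it between -0.30 (without shScr library 3) and -0.51 (without shFabp7 library 1).

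Nfkb1 encodes p105, which is cut to p50, the usual partner of the Rela protein. It occupies bases 135584655 to 135691547 of chromosome 3, minus strand (ENSMUSG00000028163). The libraries held 23.8, 26.0 and 23.6 CPM in shScr and 22.2, 21.9 and 21.9 CPM in shFabp7. The 3 shFabp7 libraries lay almost at 1 level, just below the shScr libraries. Its log2 fold change was -0.15 (SE 0.081), with a 95% interval of -0.34 to 0.028 (adjusted p = 0.369, edgeR).

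Rela and Rel encode the subunits p65 and c-Rel, which carry the transactivation domains of the classical pathway. Rela was measured at 22.5, 28.2 and 24.8 CPM in shScr and at 22.7, 22.6 and 24.1 CPM in shFabp7. Rel was measured at 5.39, 6.44 and 6.17 CPM in shScr and at 5.20, 5.47 and 6.25 CPM in shFabp7. In both genes the groups overlapped, and the highest value of Rela came from shScr library 2. Their log2 fold changes were -0.12 (95% interval -0.34 to 0.097) and -0.087 (95% interval -0.44 to 0.26). A level in shFabp7 between 78.8% and 107% of the shScr level is thus within the interval for Rela, and one between 73.9% and 119.9% for Rel.

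**Figure D2:**
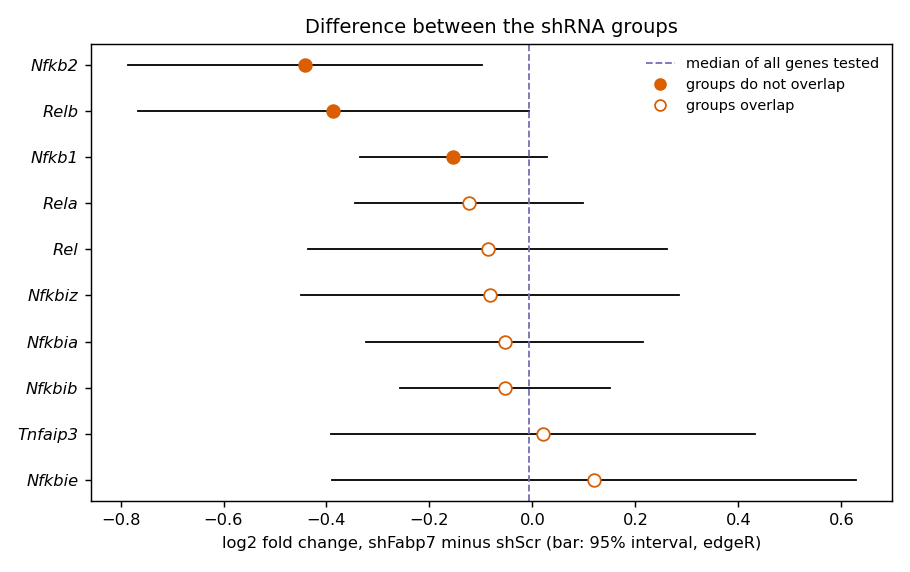
Log2 fold change of each gene (horizontal axis, shFabp7 minus shScr, points) with its 95% interval from edgeR (bars). Filled points mark genes whose groups do not overlap, and the dashed line is the median of all genes tested (-0.0065). The intervals of Nfkb2 and Relb lie below 0, and those of the other 8 genes include 0.

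Nfkbia encodes IkB-alpha, the fast feedback inhibitor that NF-kB itself induces. It occupies bases 55489411 to 55492647 of chromosome 12, minus strand (ENSMUSG00000021025). It was measured at 23.7, 22.1 and 21.3 CPM in shScr and at 18.4, 20.7 and 25.4 CPM in shFabp7. The shFabp7 group held both the lowest and the highest library, so its spread (SD 3.59 CPM) was wider than that of shScr (SD 1.22 CPM). The log2 fold change was -0.054 with a 95% interval of -0.32 to 0.22 (adjusted p = 0.861, edgeR), and its sign turned without shFabp7 library 1 (0.049).

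Nfkbib encodes IkB-beta, a slower inhibitor, and ranged from 17.4 to 19.5 CPM in shScr and from 17.2 to 18.6 CPM in shFabp7. Its 95% interval, -0.26 to 0.15, was the second narrowest of the 10 after that of Nfkb1. Nfkbie encodes IkB-epsilon and was the least abundant member in CPM, with 37, 55 and 39 counts in shScr and 44, 41 and 48 in shFabp7. Its log2 fold change of 0.12 had a 95% interval of -0.39 to 0.63. A level in shFabp7 between 76.4% and 155% of the shScr level is thus within the interval. Nfkbiz encodes IkB-zeta, a nuclear member of the family that helps NF-kB induce secondary response genes. It was measured at 7.40, 9.73 and 10.2 CPM in shScr and at 7.41, 8.51 and 9.82 CPM in shFabp7. Both groups covered nearly the same range (log2 fold change -0.082, 95% interval -0.45 to 0.28).

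Tnfaip3 encodes A20, a ubiquitin-editing enzyme that stops the signal upstream of IKK. It was measured at 5.01, 7.13 and 7.75 CPM in shScr and at 6.16, 6.63 and 7.37 CPM in shFabp7. The shFabp7 libraries all lay within the shScr range, and the log2 fold change was 0.020 with a 95% interval of -0.39 to 0.43 (adjusted p = 0.971, edgeR). Its sign turned in 6 of 19 alternative analyses. Over the 10 genes, edgeR's adjusted p ran from 0.205 to 0.971.

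The spread between libraries of 1 group was close to counting error for some members and wider for others. The chi-square of the counts within the groups, per degree of freedom, is near 1 when only counting error is present. It was 0.245 for Nfkb2, 0.661 for Nfkb1, 0.863 for Nfkbib, 0.922 for Rel, 0.990 for Nfkbie and 1.58 for Relb. It was 3.36 for Tnfaip3, 3.38 for Rela, 3.72 for Nfkbiz and 5.92 for Nfkbia.

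Levels between genes were compared per kilobase of the gene model in the files. Nfkbia stood highest, at 13.9 ± 1.55 CPM per kb (SD over 6 libraries), and no library of it reached down to the range of Rela. Rela (8.89 ± 0.817 CPM per kb) and Nfkbib (8.43 ± 0.423) followed and overlapped each other. After a gap came Nfkb1 (1.93 ± 0.132), Nfkbiz (1.76 ± 0.247), Nfkb2 (1.51 ± 0.263), Relb (1.46 ± 0.267), Nfkbie (1.02 ± 0.139), Tnfaip3 (0.923 ± 0.137) and Rel (0.779 ± 0.0702), each overlapping its neighbour in this order. The model length of Nfkb1, 12061 bases, joins the exons of all its annotated transcripts and lowers its value per kb if the cortex uses the shorter ones.

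**Figure D3:**
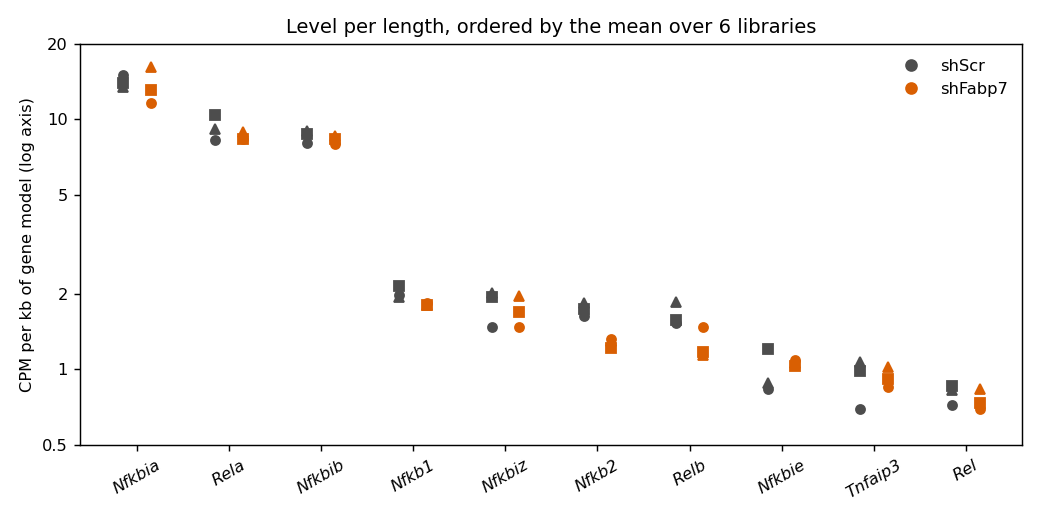
CPM per kb of gene model (vertical log axis) for the 10 genes, ordered by the mean over 6 libraries, in shScr (grey) and shFabp7 (orange), with marker shapes for libraries 1 (circle), 2 (square) and 3 (triangle). Nfkbia, Rela and Nfkbib lie between 7.94 and 16.1 CPM per kb, and the other 7 genes between 0.693 and 2.15.

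Ratios within a library do not depend on how the libraries are scaled. Per kb, there were 0.829, 0.812 and 0.942 reads of Nfkb2 for each read of Nfkb1 in shScr and 0.722, 0.672 and 0.716 in shFabp7. The ratio of Nfkb2 to Nfkb1 was thus lower in every shFabp7 library, with means of 0.861 ± 0.0710 and 0.703 ± 0.0269 (SD, n = 3 each, exact two-sided permutation p = 0.1). Relb per Rela was 0.185, 0.151 and 0.203 in shScr and 0.177, 0.141 and 0.129 in shFabp7, and these overlapped (exact permutation p = 0.2). Together, Nfkb2 and Relb made up 22.4%, 19.8% and 23.7% of the subunit reads per kb in shScr and 20.5%, 18.1% and 17.5% in shFabp7, which also overlapped (exact permutation p = 0.2). Of the 13 such shares and ratios computed, 2 had groups that did not overlap, and both contain Nfkb2. Adjustment over the 13 cannot bring a p of 0.1 under 0.05.

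The remaining ratios gave ranges that overlapped. Nfkbia per Rela, the reads of the fast inhibitor for each read of p65, was 1.81, 1.35 and 1.48 in shScr and 1.39, 1.58 and 1.82 in shFabp7. Rel per Rela lay between 0.0829 and 0.0944 in all 6 libraries. Rela made up 58.5% to 62.1% of the subunit reads per kb in shScr and 61.0% to 63.5% in shFabp7.

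**Figure D4:**
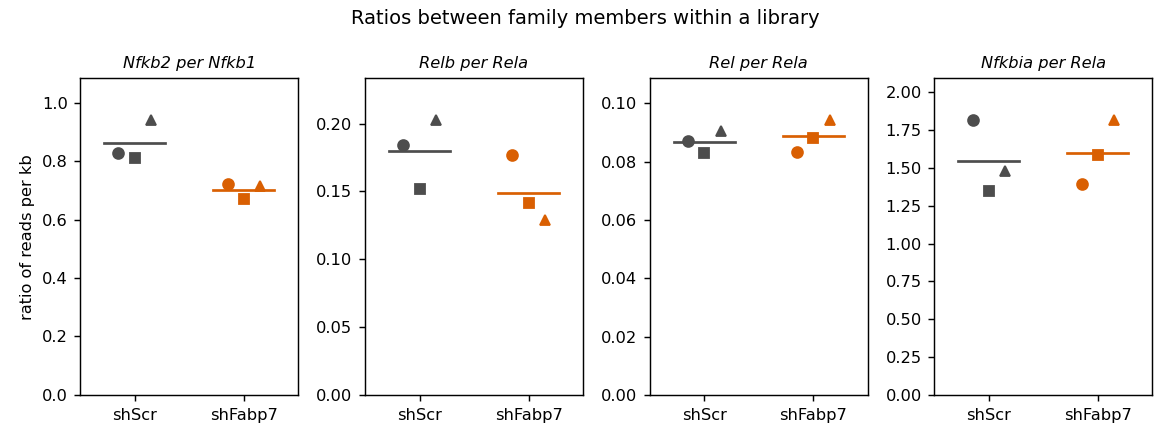
Ratio of reads per kb between pairs of members within each library (vertical axes, from 0), in shScr (grey) and shFabp7 (orange), with marker shapes for libraries 1 (circle), 2 (square) and 3 (triangle) and bars for group means. Nfkb2 per Nfkb1 is separate between the groups (0.812 to 0.942 against 0.672 to 0.722), and the other 3 ratios overlap.

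Within the libraries read as male, Nfkb2 had a log2 ratio of -0.35 and Relb of -0.070 (2 shScr libraries against 1), and within those read as female -0.55 and -0.68 (1 against 2). With sex as a term in edgeR, a fit added after the data were seen, Nfkb2 had a log2 fold change of -0.45 (adjusted p = 0.352). In that fit Relb had -0.38 (adjusted p = 0.456) and Nfkb1 -0.14 (adjusted p = 0.558). Without shFabp7 library 2 Nfkb2, Relb and Nfkb1 had -0.41, -0.34 and -0.15. All 3 genes kept their sign in all 19 alternative analyses, and none of the 3 passed the threshold in any of them.

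Exons of Nfkb2 overlap those of Psd on the opposite strand over 299 bases (6.52% of its exon bases in GENCODE M21) and those of AC114539.1 over 531 bases. The counted model of Nfkb2 is 3289 bases long, shorter than its exons in GENCODE M21. Whether that model holds the shared bases was not tested. It is unstated in the labels and headers whether reads were counted by strand. Without that, reads cannot be told apart where counted exons of these genes overlap. Psd had a log2 fold change of 0.23, in the opposite direction (adjusted p = 0.187, edgeR). Nfkbib shares 314 exon bases with Ccer2 and 42 with Sirt2, also on the opposite strand. The exons of the other 8 members overlap no other gene in that annotation.

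In bulk tissue, fewer cells of a type and less RNA per cell cannot be told apart. Microglia, the immune cells of the brain, express several of the 10 genes. Of 16 microglia markers 13 had log2 fold changes below 0 (median -0.26), and their summed level was 652 to 693 CPM in shScr and 565 to 623 CPM in shFabp7, with none at 0. With their mean log2 level, the microglia score, as a term in the fit, the log2 fold change was -0.32 for Nfkb2 and -0.45 for Relb (adjusted p = 0.917 and 0.898, edgeR). The sign turned for Rel, Rela, Nfkbia, Nfkbib and Nfkbiz, whose values were then 0.25, 0.036, 0.24, 0.13 and 0.49. Tnfaip3 kept its sign and had 0.59. The score itself was lower in every shFabp7 library (4.62 to 4.78) than in every shScr library (4.84 to 4.95). This fit can therefore hardly tell the score from the shRNA group. In it 0 genes passed, and Fabp7 had -3.10 (adjusted p = 0.857, edgeR). The same limit holds wherever the microglia score is used below. Of 15 endothelial markers 7 lay below 0, with summed levels of 491 to 622 and 565 to 593 CPM. Of 14 neuron markers 10 lay above 0, with summed levels of 8701 to 10765 and 11370 to 13021 CPM. Of 14 astrocyte markers 8 lay above 0, with 5612 to 6013 and 5700 to 6318 CPM. At an unadjusted p under 0.05 in edgeR 4 of them were lower and 4 higher, so the sum hides a split list. Slc1a2 alone had 2446 to 3040 CPM in shScr and 2907 to 3266 CPM in shFabp7. Gfap had 249, 240 and 312 CPM in shScr and 134, 161 and 168 CPM in shFabp7 (log2 fold change -0.79, adjusted p = 0.0597, edgeR). Of 14 tested markers of choroid plexus, ependyma and meninges 12 lay below 0, with 134 to 186 and 100.2 to 141 CPM, and of 16 hippocampal and striatal markers 11, with 639.5 to 1402 and 561 to 1435.5 CPM. The 18 blood leukocyte markers summed to 6.65 to 10.9 and 5.80 to 21.6 CPM, with Ly6g, Cd3d and Ms4a1 at 0 in every library. Cd4 alone made up most of these sums, with 8.22, 3.99 and 7.97 CPM in shScr and 4.48, 4.14 and 19.4 CPM in shFabp7. It was the 1 gene of the 18 with enough reads to be tested, and every other marker lay below 1 CPM in every library. With the endothelial markers' mean level as a term, Nfkb2 had -0.45 and Relb -0.38, and with that of the hippocampal and striatal markers -0.43 and -0.38. The part of neurons, astrocytes, leukocytes and of choroid plexus, ependyma and meninges in the values of the 10 genes was not tested.

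The rest of the pathway was read from 4 lists that exclude the 10 genes. Of 17 tested genes for ligands and receptors (of 23 listed), 0 passed in edgeR, 4 had an unadjusted p under 0.05, all lower, and the median log2 fold change was -0.14. Over all genes tested, 16.8% had an unadjusted p under 0.05 (8.32% lower). Tlr2, a receptor of bacterial lipoproteins, had 3.16, 3.94 and 3.77 CPM in shScr and 1.26, 1.16 and 2.08 CPM in shFabp7. Its groups did not overlap, and its log2 fold change was -1.26 (SE 0.27, adjusted p = 0.0833, edgeR), with DESeq2 giving an adjusted p of 0.00981. With the microglia score as a term it had -0.42 (adjusted p = 0.918, edgeR). Il1b, which encodes the ligand interleukin-1 beta, had 43 reads over the 3 shScr libraries and 3 over the 3 shFabp7 libraries, a ratio of 13.4 with an exact 95% counting interval of 4.29 to 67.6 (counting error only). Its adjusted p was 0.0562 in edgeR and 0.0193 in limma-voom. DESeq2 gave it none. Tlr3, a receptor of double-stranded RNA, had a log2 fold change of -0.24, and -0.072 with the microglia score. Il1rap, a subunit of the interleukin-1 receptor, had 0.25, and 0.069 without shScr library 1, whose level was 30.7 CPM against 49.0 and 46.9 CPM in the other shScr libraries. Il18, another interleukin-1 family ligand, had -0.099. DESeq2 and limma-voom each called 1 gene of this list (4.49% and 0.634% of all genes).

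Adaptors and kinases carry the signal from the receptors to IKK. Of 33 tested (of 34 listed), 0 passed in edgeR and limma-voom and 3 had an unadjusted p under 0.05, beside 16.8% of all genes. The median was 0.0053, with 17 above and 16 below 0. Tradd, an adaptor of the TNF receptor, had 5.77, 4.84 and 4.20 CPM in shScr and 7.71, 8.03 and 7.53 CPM in shFabp7. Every shFabp7 library was higher, with a log2 fold change of 0.65 (SE 0.16, adjusted p = 0.110 in edgeR and 0.0410 in DESeq2, where it was the 1 gene called), and 0.35 with the microglia score (adjusted p = 0.907, edgeR). Tirap, an adaptor of Toll-like receptors, had -0.57. Map3k14, which encodes NIK, the kinase that drives the processing of p100 in the alternative pathway, had 7.02, 6.60 and 7.09 CPM in shScr and 5.86, 5.17 and 5.34 CPM in shFabp7. All 3 shFabp7 libraries lay below the shScr libraries, with a log2 fold change of -0.34 (SE 0.14, adjusted p = 0.273, edgeR). The IKK subunit genes Chuk, Ikbkb and Ikbkg had -0.0059, 0.078 and -0.088, and were named after their values were seen. The abundant genes Traf3, which holds NIK in check, and Rbck1, of the linear ubiquitin ligase, had 0.018 and 0.0053.

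Of 22 tested genes that regulate the pathway by other feedback (of 23 listed), 0 passed in edgeR, DESeq2 or limma-voom. An unadjusted p under 0.05 was found for 4, beside 16.8% of all genes, and the median was -0.035. Tnip2, which encodes an A20-binding protein, averaged 26.4 ± 3.11 CPM in the scrambled group and 20.5 ± 2.34 CPM in the other (SD, n = 3 each; log2 fold change -0.36, adjusted p = 0.177, edgeR). Otulin, a deubiquitinase of linear chains, had 11.1 ± 1.71 and 14.6 ± 0.957 CPM (0.39, adjusted p = 0.193, edgeR). N4bp1 had -0.20. The deubiquitinase gene Cyld and the A20 cofactor gene Rnf11, the most abundant of the list, had 0.071 and 0.096.

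Of 26 tested target genes of NF-kB (of 37 listed), 0 passed in edgeR, 11 had an unadjusted p under 0.05 (10 lower, 1 higher), and 20 had log2 fold changes below 0, with a median of -0.41. Over all genes tested these shares were 16.8% (8.32% lower) and 51.5%, and the median -0.0065. Gadd45b, a stress-response gene, had 14.5, 12.5 and 16.2 CPM in shScr and 9.86, 9.61 and 8.59 CPM in shFabp7. The groups did not overlap (log2 fold change -0.62, SE 0.13, adjusted p = 0.0814 in edgeR and 0.0104 in DESeq2). Saa3, an acute-phase gene, had -2.14 from 128 against 27 reads (adjusted p = 0.0564 in edgeR and 0.00107 in DESeq2), and Cxcl10, a chemokine gene, -1.24 (adjusted p = 0.0845 in edgeR and 0.00597 in DESeq2). Junb, named after its values were seen, was the fourth gene that DESeq2 called (log2 fold change -0.77), where 4.49% of all genes were called. limma-voom called 1 target, Saa3. Sod2, the mitochondrial superoxide dismutase, and Bcl2l1, a survival gene, the most abundant of the list, had 0.015 and 0.067. Many of these genes also answer to other factors such as interferons or AP-1, so the list is not a measure of NF-kB alone. The summed microglia markers were also lower in every shFabp7 library, as given above. With their score as a term, a fit in which no gene at all passed, the median of the targets was -0.51. Saa3 then had -1.03, Cxcl10 -0.44 and Gadd45b -0.68 (adjusted p = 0.888, 0.917 and 0.888, edgeR). Promoters were counted for listed genes with a promoter in the RefSeq table, whether or not the gene was tested. By that count 11 of 26 target genes held a kappaB match, beside 9.55% of all genes in that table. So did 7 of 18 of the other regulators, 4 of 27 adaptors and kinases and 4 of 18 ligands and receptors.

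**Figure D5:**
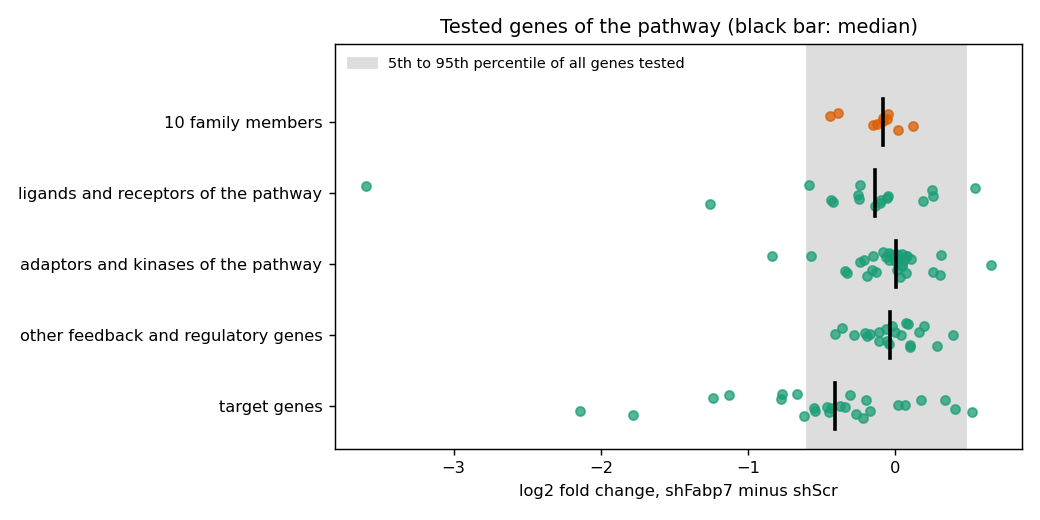
Log2 fold change (horizontal axis, shFabp7 minus shScr) of the 10 members (orange) and of the tested genes of 4 pathway lists (green), 1 point a gene with vertical scatter for visibility, black bars for medians and grey for the 5th to 95th percentile of all genes tested (-0.60 to 0.48). All 10 members lie within the grey range, the target genes reach to -2.14, and the lowest point, Il1b, rests on 3 reads in shFabp7, so its fitted value depends on the prior count.

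Among genes of at least 5 CPM, those whose level followed Rela most closely over the 6 libraries, by the root-mean-square difference of centred log2 CPM, were Edc4 (0.028), Atf1 (0.030) and Heca (0.035), against a spread of Rela itself of 0.13 (SD). Those nearest to Nfkbia were Exosc3 (0.033), Zfp213 (0.046) and Carhsp1 (0.048), and those nearest to Tnfaip3 were Ppp1r14a (0.060), Col20a1 (0.065) and Siah2 (0.068). None of the 9 is on the pathway lists. They are the best of 12186 candidates over 6 libraries and only describe likeness. Among the members themselves, the closest of the 45 pairs were Rel with Rela (0.064) and Rel with Nfkbib (0.065), and the closest partner of Nfkb2 was Relb (0.11). These distances include the difference between the shRNA groups. Nfkb2 (-0.44) and Relb (-0.39) had the lowest log2 fold changes of the members, so their closeness is not separate from that difference.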

How the data were processed

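The 6 libraries were made with a kit for stranded mRNA (from the labels' protocols), and groups and replicate numbers came from the sample titles. Per the file headers, the deposited values are unnormalized counts of reads per gene in the layout of featureCounts. As tools, the submitters' processing notes list Subread 1.5.2, STAR 2.5.2b, DESeq2 and Trimmomatic 0.36, and as build GRCm39, without roles. Gene positions in the files followed GRCm38 instead: 91.4% of 49056 IDs matched GENCODE M21 (7 of the 10 members exactly), so coordinates are read as GRCm38. Gene lengths are those of the deposited files. Symbols were found for 48970 of 49315 IDs.

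Genes were filtered with filterByExpr (17185 left), scaled by TMM and tested with edgeR 4.0.16 (R 4.3.3, quasi-likelihood, robust, group only), with Benjamini-Hochberg adjustment over all genes and a threshold of 0.05. SE is the log2 fold change over the square root of F. Log2 CPM used a prior count of 2. Tests were two-sided. Nothing in the labels says that the libraries come from different animals. By Xist and Y-linked reads each group holds libraries of both sexes, so its libraries do not all come from the same animal. Whether libraries of the same sex come from different animals is not stated. The p-values reflect the spread among libraries, which may be technical in part. No library was a copy of another (chi-square per degree of freedom 6.32 to 36.3).

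The 10 members, the gene lists and the rule for named genes were chosen with earlier results of these data known. From each list without a gene past the threshold the rule took the 3 lowest p-values and the 2 highest mean levels. Alternatives were DESeq2 1.42.0, limma-voom (limma 3.58.1), RLE and upper-quartile factors, other filters, a replicate block and 1 surrogate variable (sva 3.50.0). Further alternatives were marker scores as terms, left-out libraries and, added later, sex. Wherever limma-voom is named, it was run with quality weights, which give more variable libraries less weight. The fit was tested on simulated data. Promoter sequences are from RefSeq, build GRCm38.p6. Protein sequences were not used here.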

Additional observations from a re-analysis of the deposited data

How the results depend on the processing

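None of the 10 members passed the threshold in any of 19 alternative analyses (190 values), and 16 values changed sign, none of them in Nfkb1, Nfkb2 or Relb. The median of the members, -0.085, became 0.13 with the microglia score and -0.19 with shScr libraries 1 and 3 left out together. With the microglia score Rel was 0.25, Rela 0.036, Nfkbia 0.24, Nfkbib 0.13, Nfkbiz 0.49, Tnfaip3 0.59, Il18 0.0036, Rbck1 -0.0045, Rnf11 -0.059 and Sod2 -0.035. With shScr libraries 1 and 3 left out Nfkbie was -0.19, Tnfaip3 -0.084, Il18 0.0069 and Sod2 -0.0080. With the hippocampal and striatal score Nfkbia was 0.023 and Sod2 -0.017. Tnfaip3 was -0.0062 in limma-voom, -0.010 with the endothelial score and -0.065 with sex, a term added after the data were seen. Over single left-out libraries Nfkbia ranged from -0.19 to 0.049, Nfkbiz from -0.21 to 0.013, Tnfaip3 from -0.14 to 0.15, Rbck1 from -0.039 to 0.063, Traf3 from -0.034 to 0.059, Cyld from -0.057 to 0.20 and Sod2 from -0.027 to 0.039. Rel ranged from -0.17 to -0.031, Rela from -0.20 to -0.031, Nfkbib from -0.10 to -0.018 and Nfkbie from 0.019 to 0.31. The causes were not tested.

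The number of genes called, 20, was 696 in DESeq2, 1617 without a filter, 109 in limma-voom, 1399 with 1 surrogate variable, 0 with the microglia score, 801 with the endothelial score, 7 with sex, 120 with shScr libraries 1 and 3 left out, and 0 to 900 over single left-out libraries (0 without shFabp7 library 2 or 3). Fabp7 passed in DESeq2 (-2.30), without a filter (-2.31), in limma-voom (-2.28), with 1 surrogate variable (-2.26), with the endothelial score (-2.20) and without shScr library 1 or 2, and ranged from -2.66 to -2.0 over left-out libraries. It did not pass in edgeR with the microglia score (-3.10, adjusted p = 0.857), with sex (-2.14, adjusted p = 0.103) or with the hippocampal and striatal score (-2.11, adjusted p = 0.194). Calls among ligands and receptors, 0 in edgeR, were 1 in DESeq2 and limma-voom, 2 without a filter, 3 with 1 surrogate variable, 2 with the endothelial score and 0 to 2 over left-out libraries. Among adaptors and kinases 1 was called in DESeq2, without a filter, with 1 surrogate variable and with the endothelial score, and among other regulators 1 without a filter. Among targets 4 were called in DESeq2, 8 without a filter, 1 in limma-voom, 5 with 1 surrogate variable, 5 with the endothelial score, 5 with shScr libraries 1 and 3 left out and 0 to 3 over left-out libraries. With the replicate number as a block 629 genes were called, with 2 ligands and receptors, 3 targets, Fabp7 at -2.32 and 0 of the 10 members. Over the 19 alternatives the median was -0.25 to 0.0036 for ligands and receptors, -0.049 to 0.025 for adaptors and kinases, -0.081 to 0.0061 for other regulators and -0.51 to -0.29 for targets. The replicate numbers share no pairing in the labels. Deviations of same-numbered libraries correlated at 0.081, 0.15 and 0.057, and not every library correlated best with its own number.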
